A study of Mus musculus with 6 samples.

Results

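The mitochondrial ribosomal protein genes of the mouse heart were compared between mice infused with angiotensin II (Ang II) with and without tectochrysin (Tec), a plant flavonoid. Members were the rows of the deposited table with a symbol that begins with Mrps or Mrpl and a number, and with a protein-coding transcript type, which gave 78 of 30914 genes. A further 5 rows with such symbols were pseudogenes and were left out. Of the 78 genes, 26 encode proteins of the small subunit and 51 proteins of the large subunit of the mitochondrial ribosome, 2 of which (Mrps18a and Mrps30) carry small-subunit symbols. The remaining gene, Mrps36, is no longer counted as a ribosomal gene, since its product is known as a component of the α-ketoglutarate dehydrogenase complex.

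The libraries came from heart tissue of wild-type male C57BL/6J mice that were 8 weeks old at the start. All 6 mice were infused with Ang II, a hormone that raises blood pressure and causes cardiac hypertrophy, from osmotic pumps at 1 μg/kg/min over 4 weeks. The Ang II group (n = 3) was given no Tec, and the Ang II + Tec group (n = 3) was also given Tec at 5 mg/kg during the last 2 weeks. No heart without Ang II was among these libraries, so the comparison gives the difference with Tec in infused mice only.

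Mitochondrial ribosomes sit in the mitochondrial matrix and translate the few mRNAs of the mitochondrial genome, which encode core subunits of the respiratory chain and the ATP synthase. Their rRNAs are transcribed inside the organelle, whereas each of their proteins is encoded in the nucleus, made in the cytosol and imported. Many of the proteins have a bacterial counterpart and others exist only in mitochondria. Cardiac muscle depends on oxidative phosphorylation, and inherited defects of several of these proteins are known to cause cardiomyopathy.

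Expression was given as FPKM, fragments relative to transcript length and to all mapped fragments, so that a larger share of some transcripts can lower the FPKM of others. Transcripts of the mitochondrial genome held 41.3%, 40.2% and 48.9% of the summed FPKM in the Ang II hearts and 51.3%, 49.6% and 52.5% in the Ang II + Tec hearts. All other genes summed to 303476, 309678 and 303137 FPKM in the Ang II hearts and to 303611, 293051 and 299078 FPKM in the Ang II + Tec hearts. The protein-coding genes among these summed to 197774, 203932 and 170121 FPKM in the Ang II hearts. In the Ang II + Tec hearts they summed to 160750, 171538 and 157429 FPKM. Over the 13089 genes tested, the median log2 fold change with Tec was -0.17, and 80% of the genes were lower. This median was -0.14 with equal sums over genes outside the mitochondrial genome and 0.01 after the libraries were rescaled by the median of ratios. The cause of the lower values as deposited was not tested. Values are therefore given as deposited and rescaled. Ang II replicate 3 stood nearer to the Ang II + Tec libraries than to its own group on the principal component that held 68.7% of the variance, with a coordinate of 19.2 against -31.2 and -46.0 in Ang II replicates 1 and 2 and 28.6, 2.39 and 27.0 in the hearts given Tec. Summed FPKM of 8 cardiomyocyte markers lay between 8658 and 10575 without Tec and between 9495 and 10324 with it. Of the 8, 5 had a log2 fold change above 0 as deposited and 3 below 0. Fibroblast markers (7 genes, all lower with Tec) summed to 705.3, 928.8 and 162.8 FPKM without Tec and to 136.1, 220.9 and 150.2 FPKM with it. Macrophage markers (8 genes, of which 7 were tested and all 7 were lower) summed to 356.0, 538.3 and 275.2 and to 187.4, 185.3 and 204.4 FPKM. Of 4 atrial markers, the sums were 6204, 10253 and 256.2 FPKM and 906.4, 5032 and 127.5 FPKM, so that these were uneven within both groups. Among them, Myl7 had 419.0, 332.3 and 0 FPKM without Tec and 0, 1040 and 1.58 FPKM with it. Whether the samples held the same share of atrial tissue was not tested. The part of these differences in the results for the ribosomal genes was not tested.

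All 78 genes were expressed and passed the filter on low values. Their mean FPKM over the 6 hearts ranged from 2.50 for Mrps10 to 124.6 for Mrpl12, with a median of 15.6 against 3.46 for all genes tested, and 16 of the genes held 50% of the summed FPKM. Mrpl12, whose product forms the flexible stalk that recruits translation factors and is also known to bind the mitochondrial RNA polymerase, was followed by Mrps23, Mrpl18, Mrpl53, Mrps21, Mrpl42, Mrpl34, Mrpl55, Mrps24 and Mrpl28 in the order of mean FPKM. Their levels varied little between mice of a group. The coefficient of variation had a median of 8.25% in the Ang II hearts and 5.50% in the Ang II + Tec hearts, compared with 14.7% and 11.5% for the 7465 tested genes in the same range of mean FPKM.

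As deposited, the genes were lower in the hearts given Tec. Their summed FPKM was 1879, 1784 and 1728 in the Ang II hearts and 1551, 1465 and 1524 in the Ang II + Tec hearts, and the groups did not overlap. Of the 78 genes, 74 had a log2 fold change below 0 (80% of all genes tested), and the median was -0.23. In heart tissue, fewer cells that express these genes and less of their RNA per cell cannot be told apart. No gene passed an adjusted p of 0.05 with limma (0.183% of all genes tested did), and the lowest adjusted p was 0.154, for Mrpl12. At an unadjusted p under 0.05, 31 genes were lower and 0 higher, against 16.5% and 2.09% of all genes tested. In 48 genes every Ang II + Tec heart was below every Ang II heart, which held for 18.9% of all genes tested, and in 0 genes was the reverse seen, which held for 2.9%. Among the 7465 genes in the same range of FPKM, 80.9% were lower, 21.2% were lower without overlap, and the median log2 fold change was -0.19.

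The direction depended on the scale of the libraries. After rescaling by the median of ratios, 40 of the 78 genes were lower (48.2% of all genes tested), the median log2 fold change was -0.01, and 3 genes (Mrpl12, Mrps11 and Mrps22) were lower and 0 higher at an unadjusted p under 0.05, against 7.9% and 7.56% of all genes. In 9 genes the rescaled libraries of the Ang II + Tec group were all lower (10.6% of all genes) and in 1, Mrpl2, all higher (11.1%). The 9 genes were Mrpl12, Mrpl17, Mrpl19, Mrpl27, Mrpl41, Mrpl45, Mrpl48, Mrps11 and Mrps22. No rescaled gene passed an adjusted p of 0.05 (0.176% of all genes). The shares that were lower were near or below those of all genes tested, and the shares that were higher were below them.

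**Figure D1:**
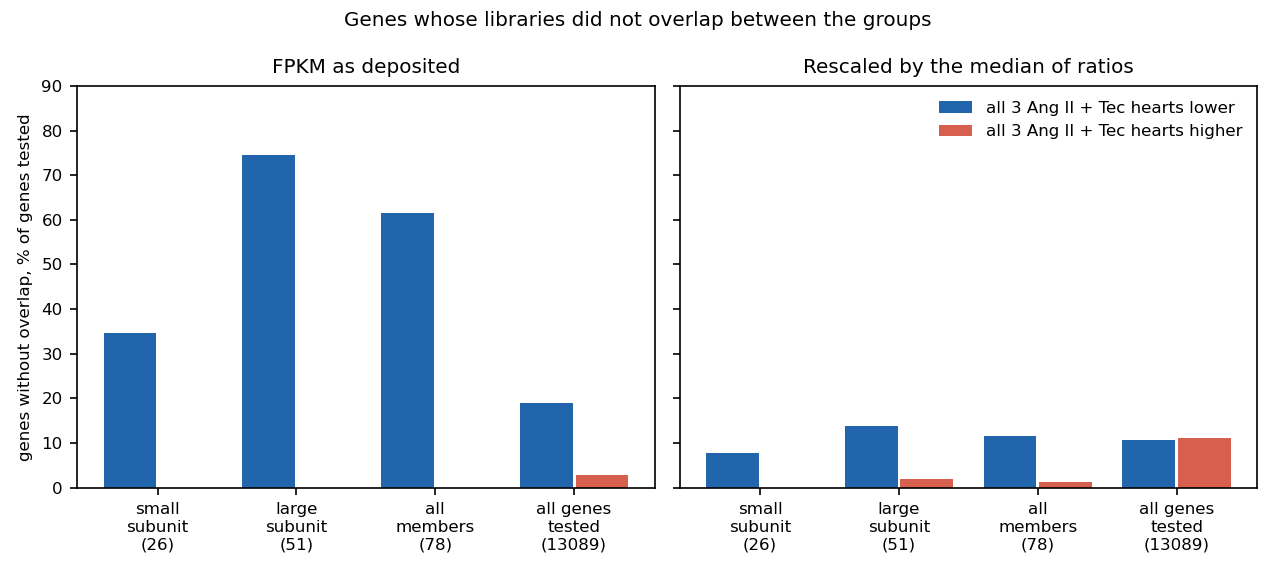
Percentage of genes in which all 3 Ang II + Tec hearts were below (blue) or above (red) all 3 Ang II hearts, for the small subunit, the large subunit, all 78 genes and all 13089 genes tested, with FPKM as deposited (left) and rescaled by the median of ratios (right). As deposited the bar for all 78 genes stands at 61.5% and that for all genes tested at 18.9%, and after rescaling the bars for the 78 genes hold 9 genes that were lower and 1 that was higher, beside 10.6% and 11.1% of all genes tested.

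As deposited, the position of Ang II replicate 3 was less marked in these genes than over the table. It was below the others of its group in 48 of the 78 genes, compared with 71.9% of all genes tested, and above every Ang II + Tec heart in 57, compared with 26.7%. The median-of-ratios factors of Ang II replicates 1, 2 and 3 were 1.16, 1.20 and 0.94, so rescaling raised replicate 3 relative to the others. These positions were not counted after rescaling. As deposited, the highest FPKM of the 6 hearts was in Ang II replicate 1 for 43 genes and in Ang II replicate 2 for 22, and the lowest was in Ang II + Tec replicate 2 for 35. Without Ang II replicate 3, 24 genes passed an adjusted p of 0.05 as deposited, with 28.8% of all genes tested, and 60 were lower without overlap, with 53.7% of all genes. When replicate 2 of the hearts given Tec was left out, 54 were lower without overlap, with 44.3% of all genes. Without Ang II replicate 3 and rescaled, 1 gene passed, Mrpl28, which was higher (adjusted p = 0.0464), with 13.8% of all genes. The 31 genes lower at an unadjusted p under 0.05 became 11 or 17 when Ang II replicate 1 or 2 was left out, 19 or 13 when replicate 1 or 3 of the hearts given Tec was left out, and 45 when Ang II replicate 3 was left out. The shares of all genes tested at an unadjusted p under 0.05 are not given for these runs. These counts therefore cannot be read as particular to the 78 genes.

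Genes of the large subunit were lower by more than those of the small subunit. Of the 51 large-subunit genes, 48 had a log2 fold change below 0 as deposited, 24 had an unadjusted p under 0.05 and 38 did not overlap, with a median of -0.25. Of the 26 small-subunit genes, 25 were below 0, 6 had an unadjusted p under 0.05 and 9 did not overlap, with a median of -0.14. Over all genes tested, 16.5% were lower at an unadjusted p under 0.05 and 18.9% were lower without overlap. Rescaled, 1 of the 51 and 2 of the 26 were lower at an unadjusted p under 0.05 (7.9% of all genes). Lower without overlap were then 7 and 2 (10.6% of all genes). After rescaling both medians moved, to -0.03 for the large and 0.07 for the small subunit, so that the direction of the small subunit turned, and the difference between them was 0.10 on both scales and 0.053 as deposited without Ang II + Tec replicate 2, given here as a description with no test. The ratio of the summed FPKM of the small subunit to that of the large subunit does not depend on the scale of a library. It was 0.403, 0.409 and 0.405 in the Ang II hearts (0.406 ± 0.0033, SD, n = 3) and 0.436, 0.426 and 0.418 in the Ang II + Tec hearts (0.427 ± 0.0091, SD, n = 3). Every heart given Tec had the higher ratio, and Ang II replicate 3 lay between the other hearts of its group. This separation rested on Mrpl12, with 165.3, 151.9 and 139.1 of the 1317, 1246 and 1208 FPKM of the large subunit in the Ang II hearts. In the hearts given Tec it held 100.2, 89.9 and 101.2 of 1063, 1011 and 1057 FPKM. Without Mrpl12 in the sum, the groups overlap in this ratio. The division by evolutionary origin showed no such gap. The 46 genes with a bacterial counterpart and the 31 without both had a median log2 fold change of -0.23 as deposited, and 29 and 18 of them did not overlap. Rescaled, the medians were -0.01 and 0.01.

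**Figure D2:**
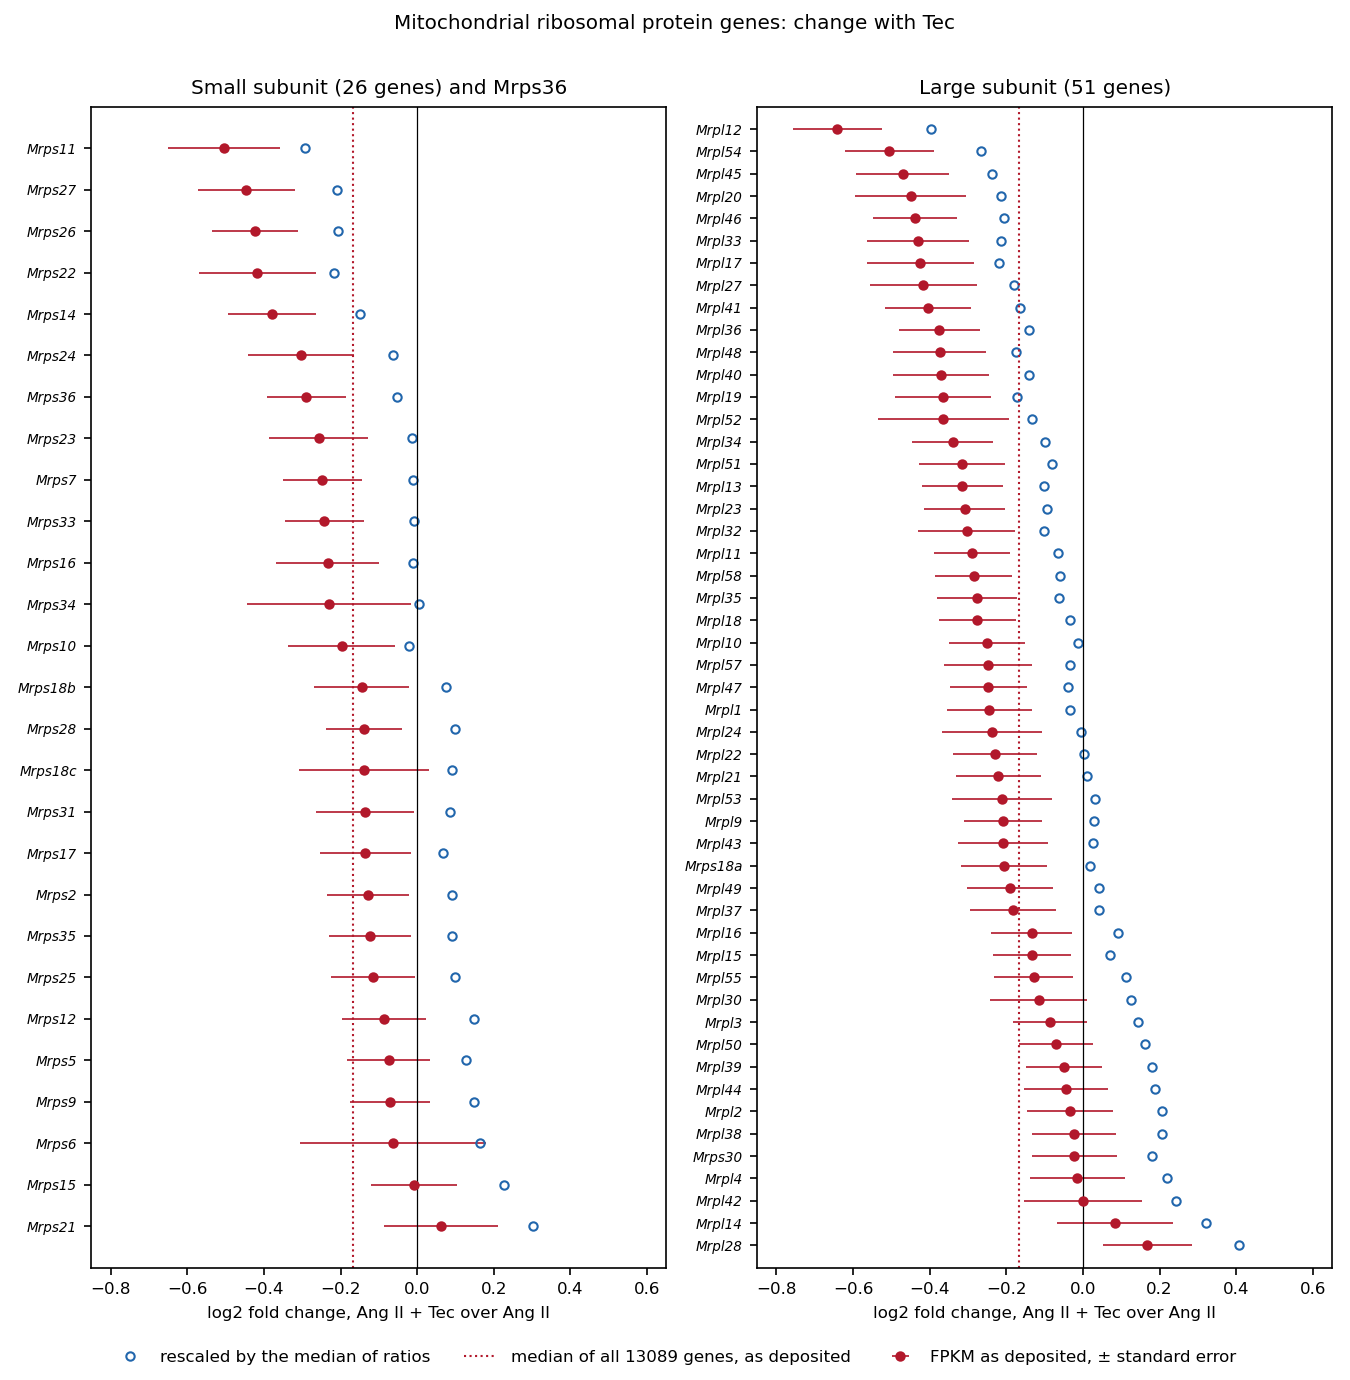
Log2 fold change (Ang II + Tec over Ang II, on log2(FPKM + 1)) of each gene, with Mrps36 and the small subunit on the left and the large subunit on the right. Red points with bars are the values as deposited with their standard error, open blue points are rescaled by the median of ratios, and the dotted line is the median of all 13089 genes as deposited, -0.17. Mrpl12 is lowest on both scales and Mrpl28 highest, and most of the small-subunit genes lie to the right of 0 once rescaled.

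Promoters of the genes were examined for what the members share in sequence. RefSeq promoter sequences (GRCm38.p6, from 250 bases before the start to 50 after it) matched 69 of the 78 genes by symbol, and motifs were searched on both strands. The letters CCGGAAG, a core bound by ETS factors such as GABP, were in 26 of the 69 promoters (37.7%), against 9.93% of 27025 promoters and 20.2% of the 9391 of genes tested. The NRF1 motif CGCATGCG was in 7 (10.1%, against 2.07% and 4.32%), the YY1 motif AAGATGGCG in 8 (11.6%, against 1.64% and 3.65%) and the core of the ZNF143 site in 5 (7.25%, against 2.08% and 4.75%). At least 1 of the 4 was in 38 promoters, or 55.1%, against 14.4% and 29.6%. Matches of different motifs overlapped only in Mrpl34, between the ZNF143 core and the ETS letters. Of the 43 promoters of genes that were lower without overlap as deposited 27 held a motif, and of the other 26 promoters 11 did. The 250 bases before the start are shown for the lowest and the highest gene, Mrpl12 (chr11:120484387-120484636, plus strand) and Mrpl28 (chr17:26123253-26123502, plus strand), which held none of the motifs, and for 2 genes that were lower without overlap on both scales and held more than 1, Mrpl17 (chr7:105811088-105811337, minus strand) and Mrps22 (chr9:98601680-98601929, minus strand). Capitals mark the motifs.
Mrpl12: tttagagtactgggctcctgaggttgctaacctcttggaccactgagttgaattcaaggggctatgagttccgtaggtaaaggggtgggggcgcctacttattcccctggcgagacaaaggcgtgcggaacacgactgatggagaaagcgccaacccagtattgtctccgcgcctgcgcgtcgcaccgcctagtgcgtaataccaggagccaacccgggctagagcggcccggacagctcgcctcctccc
Mrpl28: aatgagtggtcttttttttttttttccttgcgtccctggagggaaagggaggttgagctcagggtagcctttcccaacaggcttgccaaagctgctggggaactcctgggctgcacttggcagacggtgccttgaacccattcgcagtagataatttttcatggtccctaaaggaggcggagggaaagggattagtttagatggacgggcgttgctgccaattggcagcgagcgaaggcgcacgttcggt
Mrpl17: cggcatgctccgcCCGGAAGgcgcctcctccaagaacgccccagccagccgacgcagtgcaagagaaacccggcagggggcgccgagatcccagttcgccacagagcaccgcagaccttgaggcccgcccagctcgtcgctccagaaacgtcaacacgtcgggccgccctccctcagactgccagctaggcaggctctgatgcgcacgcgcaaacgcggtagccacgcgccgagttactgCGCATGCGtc
Mrps22: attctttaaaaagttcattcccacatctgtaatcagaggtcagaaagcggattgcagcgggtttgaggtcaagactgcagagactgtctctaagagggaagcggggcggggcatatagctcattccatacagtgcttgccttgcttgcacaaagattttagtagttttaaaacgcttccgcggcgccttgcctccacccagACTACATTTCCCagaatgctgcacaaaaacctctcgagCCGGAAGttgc

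In Mrpl17 the ETS letters began at base -237 and the NRF1 letters at base -10 from the start. Mrpl17, counterpart of a bacterial large-subunit protein, had 5.88, 6.43 and 4.81 FPKM in the Ang II hearts and 4.34, 4.21 and 3.42 FPKM in the Ang II + Tec hearts. The groups did not overlap, and the log2 fold change of Mrpl17 was -0.42 ± 0.14 (adjusted p = 0.229) and -0.22 rescaled. In Mrps22, the ZNF143 letters began at base -49 and the ETS letters at base -11. The motifs are matches of letters in these windows, and binding was not measured in these hearts.

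Mrpl12, at chr11:120484613-120489065 on the plus strand (GRCm38), differed most. Its FPKM was 165.3, 151.9 and 139.1 in the Ang II hearts and 100.2, 89.9 and 101.2 in the Ang II + Tec hearts. The lowest Ang II heart was well above the highest heart given Tec. The means were 152.1 ± 13.1 and 97.1 ± 6.25 FPKM (SD, n = 3), with a log2 fold change of -0.64 ± 0.12 (SE, adjusted p = 0.154) and of -0.40 ± 0.16 after rescaling (unadjusted p = 0.0410 with limma, adjusted p = 0.310). Rescaled FPKM of Mrpl12 was 142.4, 126.5 and 147.8 in the Ang II hearts and 116.1, 86.8 and 115.0 in those given Tec, which also did not overlap.

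Mrpl54 encodes a mitochondria-specific protein of the large subunit. Its FPKM was 37.8, 39.9 and 33.9 without and 28.3, 24.5 and 24.9 with Tec, again with no overlap, and the log2 fold change was -0.51 ± 0.12 (adjusted p = 0.188) and -0.27 rescaled, where the libraries overlapped. Mrpl45, whose product lies near the exit of the peptide tunnel and contacts the inner membrane, had 25.2, 23.5 and 19.8 FPKM without and 15.9, 16.4 and 16.1 FPKM with Tec. The hearts given Tec were nearly equal as deposited and all lower on both scales, and the log2 fold change of Mrpl45 was -0.47 ± 0.12 (adjusted p = 0.201) and -0.24 rescaled. Mrpl41, a further mitochondria-specific protein of the large subunit, followed the same pattern with 46.5, 46.0 and 39.0 FPKM without and 32.5, 32.3 and 33.4 FPKM with Tec, and a log2 fold change of -0.41 ± 0.11 (adjusted p = 0.209) and -0.17 rescaled. Mrpl20 and Mrpl33, counterparts of bacterial proteins, had log2 fold changes of -0.45 ± 0.15 and -0.43 ± 0.13, which were -0.21 for each after rescaling, where both overlapped.

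Among small-subunit genes, Mrps11, counterpart of a bacterial protein of the small-subunit platform, was lowest. Its FPKM was 8.43, 8.46 and 7.47 in the Ang II hearts and 4.36, 6.34 and 5.73 in the Ang II + Tec hearts. The groups were apart, and Ang II + Tec replicate 1 was the lowest. The log2 fold change of Mrps11 was -0.50 ± 0.15 (adjusted p = 0.218) and -0.29 ± 0.11 rescaled. Mrps27, an RNA-binding protein with pentatricopeptide repeats, had 31.2, 25.3 and 24.4 FPKM without and 20.2, 18.8 and 19.4 FPKM with Tec. The log2 fold change of Mrps27 was -0.45 ± 0.13 (adjusted p = 0.216) and -0.21 rescaled, where the libraries overlapped. Mrps26, which has no bacterial counterpart, had a log2 fold change of -0.42 ± 0.11 (adjusted p = 0.201) and also -0.21 rescaled, with overlap.

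Mrps11 lies head to head with Mrpl46, a large-subunit gene. Mrps11 is at chr7:78783119-78792989 on the plus strand and Mrpl46 at chr7:78775236-78783531 on the minus strand, and the 2 genes overlap by 413 bases. Mrpl46 had 21.6, 19.4 and 18.7 FPKM without and 14.8, 13.5 and 14.9 FPKM with Tec, with all hearts given Tec lower. Its log2 fold change was -0.44 ± 0.11 (adjusted p = 0.201) and -0.21 rescaled, where the groups overlapped. Whether the counting used strand is not given in the sources used here, so reads from the shared bases cannot be told apart. The coordinates of 20 of the 78 genes overlapped another protein-coding gene. The median log2 fold change was -0.24 in those 20 and -0.22 in the others, and 15 and 33 of them were lower without overlap.

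**Figure D3:**
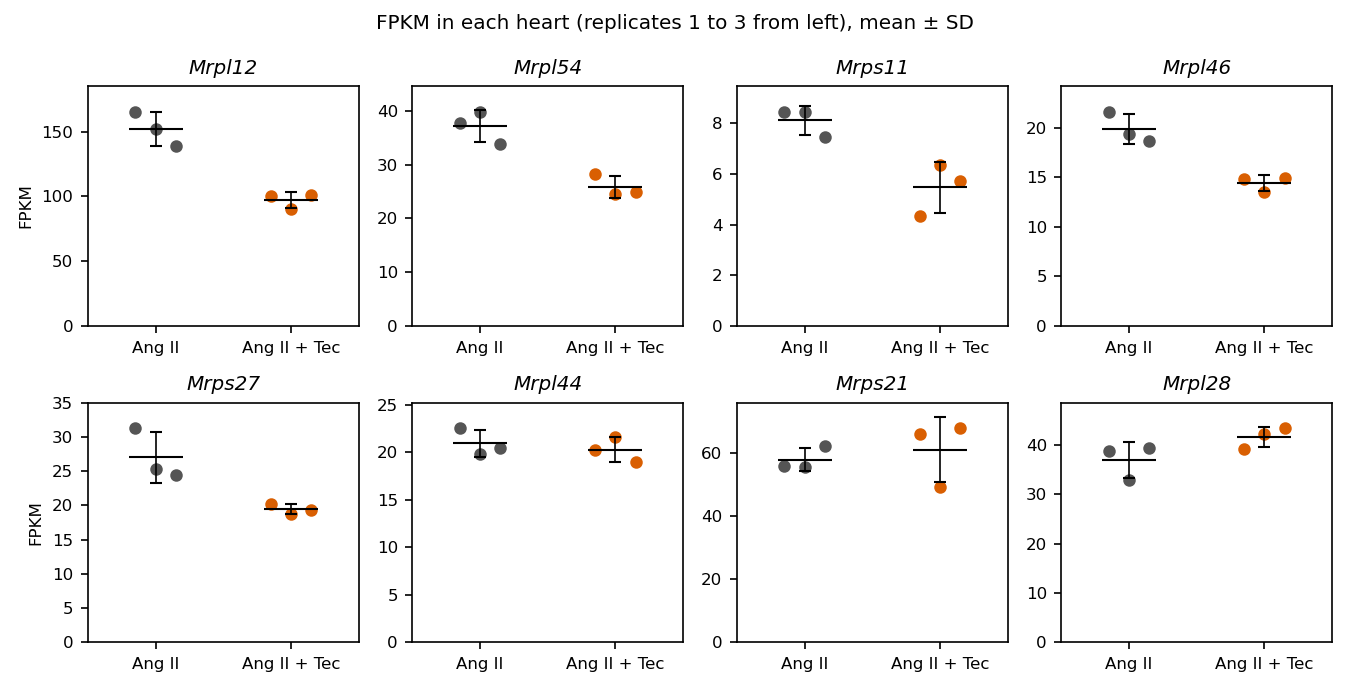
FPKM as deposited in each of the 3 Ang II hearts (grey) and 3 Ang II + Tec hearts (orange), with replicates 1 to 3 from left to right in each group, and mean ± SD, for 5 genes with low log2 fold changes and 3 with values near or above 0. The upper row and Mrps27 show no overlap, while Mrpl44, Mrps21 and Mrpl28 overlap. Rescaled, Mrpl54, Mrpl46 and Mrps27 overlap as well, and Mrpl44 turns from lower to higher.

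Only 4 of the 78 genes had a log2 fold change above 0 as deposited, and none passed the test. Mrpl28 was the highest of them. Its FPKM was 38.7, 32.8 and 39.4 in the Ang II hearts and 39.2, 42.1 and 43.3 in the Ang II + Tec hearts, which overlapped. The means were 36.9 ± 3.60 and 41.5 ± 2.11 FPKM, and the log2 fold change was 0.17 ± 0.12 (adjusted p = 0.418) and 0.41 ± 0.17 rescaled (unadjusted p = 0.0507 with limma). Mrps21 had 55.9, 55.7 and 62.3 FPKM without and 66.0, 49.3 and 67.9 FPKM with Tec. Ang II + Tec replicates 1 and 3 were above all Ang II hearts and Ang II + Tec replicate 2 was below them. Its log2 fold change was 0.06 ± 0.15 and 0.30 rescaled, that of Mrpl14 was 0.08 ± 0.15 and 0.32 rescaled, and that of Mrpl42 was 0.00 ± 0.15 and 0.24 rescaled. Mrps15 was next, at -0.01 ± 0.11 as deposited and 0.23 rescaled.

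The composition of the group of transcripts differed between Ang II and Ang II + Tec hearts. Each gene was expressed as its percentage of the summed FPKM of the 78 genes, a measure that no scaling of a library changes. By it 13 genes were lower and 13 higher in every heart given Tec, and over all genes tested, set against the same sum, these shares were 5.36% and 12.2%. Mrpl12 made up 8.80%, 8.51% and 8.05% in the Ang II hearts and 6.46%, 6.14% and 6.64% in the Ang II + Tec hearts. Mrpl28 made up 2.06%, 1.84% and 2.28% and then 2.53%, 2.87% and 2.84%. The other genes with a lower percentage were Mrpl11, Mrpl13, Mrpl33, Mrpl34, Mrpl36, Mrpl41, Mrpl45, Mrpl46, Mrpl54, Mrps14, Mrps26 and Mrps27. The other genes with a higher percentage were Mrpl2, Mrpl3, Mrpl4, Mrpl16, Mrpl38, Mrpl39, Mrpl44, Mrpl50, Mrpl55, Mrps5, Mrps9 and Mrps30. Across the 78 genes, the log2 fold changes as deposited had an SD of 0.16, against 0.35 among genes in the same range of FPKM. Spearman's rho of the fold change with the length of the longest transcript was 0.0077 across the 78 genes, which are not independent, and with mean FPKM it was 0.075.

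Several members are known from inherited cardiomyopathy or from their place in the ribosome. Mrpl3 and Mrpl44, in which variants cause cardiomyopathy in patients, differed little. Mrpl3 had 13.8, 13.6 and 13.1 FPKM without and 12.6, 12.7 and 12.7 FPKM with Tec, and Mrpl44 had 22.5, 19.8 and 20.5 FPKM and 20.2, 21.6 and 19.0 FPKM. The groups were apart by less than 1 FPKM in Mrpl3 and overlapped in Mrpl44, with log2 fold changes of -0.09 ± 0.10 and -0.04 ± 0.11, which turned to 0.14 and 0.19 when rescaled. Mrps22 and Mrps14, likewise linked to cardiomyopathy, had log2 fold changes below 0 on both scales, and only Mrps22 was without overlap on both. Mrps22 had 5.38, 5.90 and 3.98 FPKM without and 3.49, 3.92 and 3.17 FPKM with Tec, where Ang II replicate 3 was only just above Ang II + Tec replicate 2. Its log2 fold change was -0.42 ± 0.15 (adjusted p = 0.238) and -0.22 ± 0.08 rescaled. Mrps14 had 15.1, 14.3 and 13.1 FPKM without and 10.9, 9.71 and 11.4 FPKM with Tec, with no overlap as deposited. The log2 fold change of Mrps14 was -0.38 ± 0.11 (adjusted p = 0.221) and -0.15 ± 0.14 rescaled, where the libraries overlapped.

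Mrps12, counterpart of the bacterial protein at the decoding centre, had 22.2, 19.6 and 20.8 FPKM without and 20.2, 20.5 and 18.1 FPKM with Tec. The groups overlapped, and the log2 fold change of -0.09 ± 0.11 turned to 0.15 when rescaled. Mrpl11, which forms the base of the stalk that carries Mrpl12, had 11.2, 11.4 and 10.5 FPKM without and 8.89, 8.68 and 8.99 FPKM with Tec. All hearts given Tec were lower, and the log2 fold change of Mrpl11 was -0.29 ± 0.10 (adjusted p = 0.230) and -0.07 rescaled. Mrpl58, a peptidyl-tRNA hydrolase that rescues stalled ribosomes, had -0.28 ± 0.10 and -0.06 rescaled, and Mrpl47 had -0.25 ± 0.10 and -0.04 rescaled, both without overlap as deposited and with overlap after rescaling.

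The 3 paralogues that correspond to a single bacterial protein, Mrps18a, Mrps18b and Mrps18c, were similar, though only Mrps18c was counted above with a bacterial counterpart. Their log2 fold changes were -0.21 ± 0.11, -0.14 ± 0.12 and -0.14 ± 0.17 as deposited and turned to 0.02, 0.08 and 0.09 when rescaled. Mrps30 was at -0.02 ± 0.11 and turned to 0.18. Mrps36 had 30.9, 28.2 and 30.5 FPKM without and 25.2, 23.0 and 24.5 FPKM with Tec, with no overlap, and a log2 fold change of -0.29 ± 0.10 (adjusted p = 0.234) and -0.05 rescaled. Among the most abundant members, Mrps23 had 96.6, 91.8 and 79.6 FPKM without and 83.0, 69.0 and 71.6 FPKM with Tec. Ang II replicate 3 was below Ang II + Tec replicate 1 in Mrps23, and its log2 fold change was -0.26 ± 0.13 and -0.01 rescaled. Mrpl18, with 77.6, 73.7 and 74.0 FPKM and then 61.5, 59.8 and 64.4 FPKM, did not overlap, at -0.28 ± 0.10 and -0.03 rescaled. Mrpl34 and Mrpl36, small proteins with bacterial counterparts, were at -0.34 ± 0.11 and -0.37 ± 0.11, and at -0.10 and -0.14 rescaled. Mrps24 was at -0.30 ± 0.14 and -0.06 rescaled, whereas Mrpl53 and Mrpl55, at -0.21 ± 0.13 and -0.13 ± 0.10, turned to 0.03 and 0.11 when rescaled.

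Of 5 further proteins of the mitochondrial ribosome with other symbols, 3 were lower and 2 higher as deposited. Dap3, a GTP-binding protein of the small subunit, had 6.53, 5.69 and 7.66 FPKM in the Ang II hearts and 8.39, 8.56 and 9.03 FPKM in the Ang II + Tec hearts. All hearts given Tec were higher, before and after rescaling, and the log2 fold change was 0.35 ± 0.13 (adjusted p = 0.237) and 0.56 rescaled. Chchd1, also of the small subunit, had 61.5, 60.5 and 54.6 FPKM without and 47.6, 40.3 and 39.3 FPKM with Tec. It was lower without overlap, at -0.47 ± 0.12 (adjusted p = 0.201) and -0.23 rescaled, where the libraries overlapped. Aurkaip1 and Gadd45gip1 were at -0.22 ± 0.12 and -0.17 ± 0.11 and turned to 0.02 and 0.06 when rescaled, while Ptcd3 was at 0.05 ± 0.10 and 0.28 rescaled.

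The rRNAs of the mitochondrial ribosome were higher with Tec, on the other side from most of its protein genes as deposited. Rescaled, 40 of the 78 genes were lower, with a median log2 fold change of -0.01. mt-Rnr2, the rRNA of the large subunit, had 1034, 983.5 and 2057 FPKM in the Ang II hearts and 3874, 3492 and 3739 FPKM in the Ang II + Tec hearts. mt-Rnr1, the rRNA of the small subunit, had 789.0, 784.0 and 1902 FPKM and then 2034, 1951 and 2469 FPKM. Ang II replicate 3 was nearest to the hearts given Tec in both, and the groups did not overlap as deposited. The log2 fold changes were 1.53 ± 0.28 (adjusted p = 0.154) for mt-Rnr2 and 1.02 ± 0.34 (adjusted p = 0.229) for mt-Rnr1, and 1.78 and 1.26 rescaled, where mt-Rnr1 overlapped. The libraries were made from poly(A)-selected RNA, so these values are the rRNA that passed that selection. The 13 mitochondrial mRNAs, which these ribosomes translate, all had log2 fold changes above 0 as deposited and rescaled. Their median was 0.38 as deposited, 0.63 rescaled and 0.088 under quantile normalization. Only 4 were higher without overlap as deposited (2.9% of all genes tested) and 2 rescaled (11.1%). Their summed FPKM overlapped between the groups, with 268269 in Ang II replicate 3 and 261251 in Ang II + Tec replicate 2. The ratio of the 78 genes to these mRNAs was 0.0093, 0.0091 and 0.0064 in the Ang II hearts and 0.0054, 0.0056 and 0.0051 in the Ang II + Tec hearts.

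**Figure D4:**
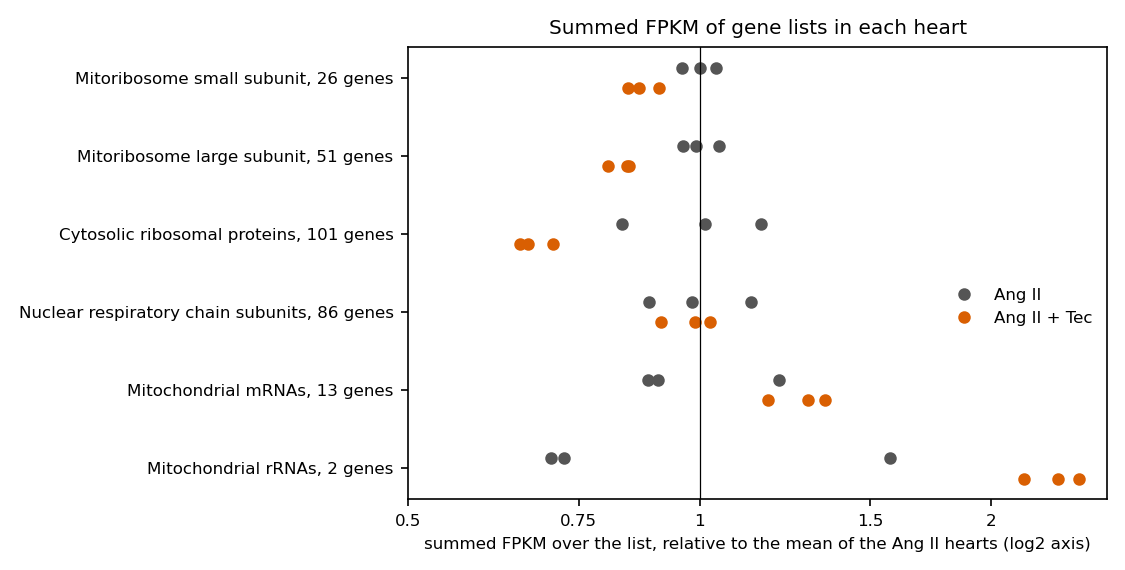
Summed FPKM as deposited of 6 gene lists in each Ang II heart (grey) and each Ang II + Tec heart (orange), relative to the mean of the Ang II hearts, on a log2 axis. Both subunits and the cytosolic ribosomal proteins lie lower with Tec, the nuclear respiratory chain genes and the mitochondrial mRNAs overlap, and the mitochondrial rRNAs lie higher. Rescaled by the median of ratios, the median log2 fold change of the small-subunit genes turns to 0.07 and that of the nuclear respiratory chain genes to 0.22.

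Other nuclear genes of mitochondrial translation had medians nearer to 0 as deposited, but not after rescaling. Of 25 assembly factors of the mitochondrial ribosome, 20 were below 0 as deposited (80% of all genes tested), with a median of -0.08. At an unadjusted p under 0.05, 3 of them were lower as deposited (16.5% of all genes) and 1 rescaled (7.9%). Of 14 translation factors 11 were below 0 with a median of -0.16, of 20 aminoacyl-tRNA synthetases 15 with a median of -0.06, and of 7 genes of mitochondrial transcription 4 with a median of -0.08. After rescaling these 4 medians turned to 0.09, 0.05, 0.11 and 0.13, farther from 0 than the median of the 78 genes, -0.01. Tufm, the elongation factor that brings aminoacyl-tRNA to the ribosome, was at -0.16 ± 0.12 and 0.08 rescaled, and Tfam, which packages mitochondrial DNA, at -0.19 ± 0.10 and 0.03 rescaled. Polrmt, the mitochondrial RNA polymerase, was at 0.17 ± 0.13 and 0.36 rescaled. Lrpprc, which stabilises mitochondrial mRNAs, had 8.39, 7.14 and 9.17 FPKM without and 12.0, 11.4 and 9.76 FPKM with Tec, all higher, at 0.39 ± 0.13 (adjusted p = 0.230) and 0.61 rescaled.

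Against the cytosolic ribosome, the mitochondrial ribosomal protein genes were lower by less. Of 98 cytosolic ribosomal protein genes tested, 92 were below 0 as deposited (80% of all genes tested). At an unadjusted p under 0.05, 80 were lower as deposited (16.5% of all genes) and 38 rescaled (7.9%). The median was -0.54 as deposited and -0.30 rescaled. The summed FPKM of the 78 genes over that of the cytosolic genes was 0.151, 0.125 and 0.169 in the Ang II hearts and 0.193, 0.179 and 0.175 in the Ang II + Tec hearts, higher in every heart given Tec. Of 85 nuclear genes for subunits of the respiratory chain, 53 were below 0, with a median of -0.03 that turned to 0.22 when rescaled. The ratio of the 78 genes to these was 0.119, 0.125 and 0.0946 in the Ang II hearts and 0.0937, 0.0995 and 0.0953 in the Ang II + Tec hearts. Ang II replicate 3 was among the hearts given Tec in this ratio, so the groups overlapped.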

How the data were processed

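RNA from heart tissue was poly(A)-selected and sequenced in 6 libraries of 6 mice (3 per group). Per the methods, Cutadapt removed adapters and low-quality reads and FastQC was run, and the values that the authors deposited are FPKM for each gene and library. The submitters' processing notes list Bowtie 0.12.2, HISAT2 2.0, StringTie 1.3.0 and mm8, without role or order. The gene coordinates in the table were, however, identical to GENCODE M21 (GRCm38) for 26777 of 30914 genes and 69 of the 78 members. The table holds no read totals, so the depth of the libraries and counting intervals are not given, and no count model was used. The error is the spread between mice.

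Genes that reached 0.5 FPKM in 3 or more libraries entered the test on log2(FPKM + 1), which shrinks fold changes where FPKM is low, with limma 3.58.1 in R 4.3.3 (eBayes with a variance trend, no block or covariate), adjusted by Benjamini-Hochberg over all 13089 genes and called under 0.05. Rescaled values were divided by median-of-ratios factors. The fit was checked on simulated data. Tables and figures were made with Python 3.11.15, pandas 2.3.3 and matplotlib 3.10.9.

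The members and gene lists were chosen with earlier results of these data known. Genes named were the 10 of highest mean FPKM, the 8 lowest and 5 highest log2 fold changes, the 8 of lowest p, 14 genes chosen for their role and 11 related genes. Mrps10, Mrpl2, Mrpl17, Mrpl19, Mrpl27, Mrpl48 and the genes named only for their percentage of the summed FPKM were chosen after their values were seen. Alternatives changed the pseudocount (0.1), the filter (none, or a mean FPKM of at least 1), the scaling, the variance trend and the block, and left out each library. Replicate numbers did not pair the mice.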

Additional observations from a re-analysis of the deposited data

How the results depend on the processing

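The counts depended on how the libraries were scaled. Under the median of ratios, 40 of the 78 genes were lower, 3 of them at an unadjusted p under 0.05, 9 without overlap, and the median log2 fold change was -0.0061. Under quantile normalization these were 39, 5, 9 and 0.000375 (with 2 higher at an unadjusted p under 0.05), and with equal sums over protein-coding genes outside the mitochondrial genome, chosen after seeing the data, 44, 7, 15 and -0.031 (1 higher). With the median of ratios and without Ang II replicate 3, also chosen after seeing the data, they were 28, 1, 11 and 0.062 (7 higher, and 1 gene past an adjusted p of 0.05). With equal sums over all genes outside the mitochondrial genome, the counts stayed near those as deposited, at 70, 26, 42 and -0.20 (0 higher). The cause of these differences was not tested. Leaving out 1 library at a time gave 71 to 75 genes lower, 11 to 45 at an unadjusted p under 0.05, 48 to 60 without overlap, a median of -0.28 to -0.19, and 0 to 24 genes past an adjusted p of 0.05. The count without overlap cannot fall when a library is left out, so its lower bound says nothing of stability. Of all genes tested, 53.7% were lower without overlap and 28.8% passed without Ang II replicate 3, against 18.9% and 0.183% with all libraries. For quantile normalization, equal sums and, except where stated, the runs that left out a library, shares over all genes are not given. Those counts cannot be set against them. The difference between the medians of the subunits stayed between 0.053 and 0.12 in every alternative run. Pseudocount, filter and variance trend changed none of the counts by over 1.5 times.

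Log2 fold changes that turned positive under the median of ratios, quantile normalization, equal protein-coding sums, and the median of ratios without Ang II replicate 3 were, in this order, 0.031, 0.014, 0.0055 and 0.14 for Mrpl53, 0.076, 0.068, 0.053 and 0.12 for Mrps18b, 0.092, 0.092, 0.067 and 0.0086 for Mrps18c, 0.11, 0.12, 0.087 and 0.20 for Mrpl55, 0.15, 0.15, 0.12 and 0.25 for Mrps12, 0.14, 0.14, 0.12 and 0.23 for Mrpl3, 0.19, 0.19, 0.16 and 0.28 for Mrpl44, 0.18, 0.19, 0.16 and 0.27 for Mrps30 and 0.23, 0.22, 0.20 and 0.41 for Mrps15. Mrps18a turned to 0.018, 0.0095 and 0.085 under the first, the second and the last. Under the last, Mrps24 turned to 0.15, Mrpl11 to 0.0011, Mrps36 to 0.068, Mrpl58 to 0.040, Mrpl18 to 0.064, Mrps23 to 0.013 and Mrpl47 to 0.045. Equal sums over all genes outside the mitochondrial genome turned Mrps30 to 0.0043 and Mrps15 to 0.023. Leaving out 1 library, the values ranged from -0.089 to 0.0064 for Mrpl44, -0.11 to 0.13 for Mrpl42, -0.060 to 0.068 for Mrps15, -0.021 to 0.21 for Mrps21, -0.015 to 0.21 for Mrpl14 and -0.069 to 0.041 for Mrps30.

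Hearts with the same replicate number shared only that number. Their deviations from the group means correlated at -0.039, 0.429 and 0.379, and not every heart correlated best with its own number. With the replicate block, 22 of the genes were lower at an unadjusted p under 0.05 and 0 passed an adjusted p of 0.05. The shares over all genes tested are not given for that run.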
